A study of Danio rerio with 21 samples.

Results

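MHet larvae are *pomgnt2* +/- zebrafish whose mothers were -/-, and the growth of these larvae from 5 to 10 days post-fertilization (dpf) was followed in 6 of the 21 RNA-seq samples of the study, 3 pools at 10 dpf and 3 pools at 5 dpf. The members were chosen by genotype, mother and age as given in the sample labels, and no expression value entered the choice. *pomgnt2* encodes an enzyme that extends O-mannose glycans on dystroglycan, and the study set larvae without the zygotic gene, or without both the maternal and the zygotic gene, against their siblings. The 15 other samples are WT, Het and ZKO larvae of +/- mothers at 5 dpf and MZKO larvae, the -/- siblings of the MHets, at both ages. All larvae were of the EK strain, and each sample was a pool of 4 to 6 whole larvae, so that a pool averages over animals and over every tissue.

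At 10 dpf the MHet pools were +/- larvae of -/- mothers that carried batch 2 in the labels, and at 5 dpf they were +/- larvae of -/- mothers that carried batch 1. Age and the labels' batch therefore coincide, and for every difference given here the 2 cannot be told apart. Larvae were genotyped while alive at 4 dpf, the 5 dpf larvae were frozen the next day, and the 10 dpf larvae were kept apart by genotype on the recirculating water system until they were taken. The time of day at which larvae were taken and what they were fed are not given in the sources used here. Nothing in the labels says whether the pools of an age came from separate clutches, so p-values measure the spread between pools.

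Between these ages a zebrafish larva stops living on its yolk and has to feed itself. At 5 dpf the swim bladder, the liver, the exocrine pancreas and the gut already work, primitive red cells from the embryo still circulate, and the skin carries the ion-transporting cells that later move to the gills. By 10 dpf the larva hunts and digests prey, turns over its embryonic blood, adds lens fibres, myelin and cartilage, and begins to assemble an adaptive immune system. The gene lists below follow these organs and functions.

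Among 23826 genes tested with edgeR's quasi-likelihood test, 1694 were upregulated DEGs and 1707 were downregulated DEGs at 10 dpf relative to 5 dpf, or 7.11% and 7.16% of the genes tested (14.3% in either direction). A DEG had an adjusted p under 0.01, by Benjamini-Hochberg over all genes tested, and an absolute log2 fold change over 0.7. Of the DEGs, 941 rose and 962 fell by more than 1 on the log2 scale, and the pools of the 2 ages did not overlap in 3399 of the 3401. Over all genes tested the pools did not overlap in 50.9%, with 25.1% higher and 25.8% lower at 10 dpf, and the median log2 fold change was -0.00. Of the 3401 DEGs, 1912 kept the call whichever of the 6 pools was dropped. Levels are given as CPM, counts scaled to library totals adjusted by TMM scaling, which takes most genes as unchanged. The TMM factors were 0.948 to 0.957 at 10 dpf and 1.04 to 1.07 at 5 dpf. CPM were not divided by transcript length, so they are compared between ages and never between genes.

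The libraries held 16959935 to 22236006 counts at 10 dpf and 19970436 to 22439739 counts at 5 dpf, and 3 counts, taken as the floor of detection, correspond to 0.129 to 0.187 CPM. Of 44 defining markers of whole-larva tissues, 43 were in the table and 40 were over that floor in each of the 6 pools, among them markers of muscle, lens, retina, neurons, liver, pancreas, gut, red cells, skin and pigment cells. Those at or under the floor in at least 1 pool included the T cell kinase *lck* and the germ cell gene *dazl*. A gene that RefSeq lists as ribosomal RNA (*zgc:158463*) took 0.828% to 1.13% of the counts at 10 dpf, against 0.0539% to 0.126% at 5 dpf, and genes of the mitochondrial genome took 2.81% to 3.38% against 1.95% to 2.33%. The 10 most abundant genes took 9.83% to 10.7% of the counts at 10 dpf and 12.3% to 13.0% at 5 dpf. The part of these library differences in the results was not tested.

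The bars of the share of each list called show where the DEGs fell. Lists and their members were picked by function with earlier results of these data known, so each count is read against the 7.11% up and 7.16% down of all genes. The median of all genes, -0.00, is held near 0 by the TMM scaling, so each list median is relative to the bulk of genes. On plain library totals the ratios of summed CPM were lower, such as 1.28 in place of 1.41 for DNA replication and 0.945 in place of 1.04 for the triad.

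**Figure D1:**
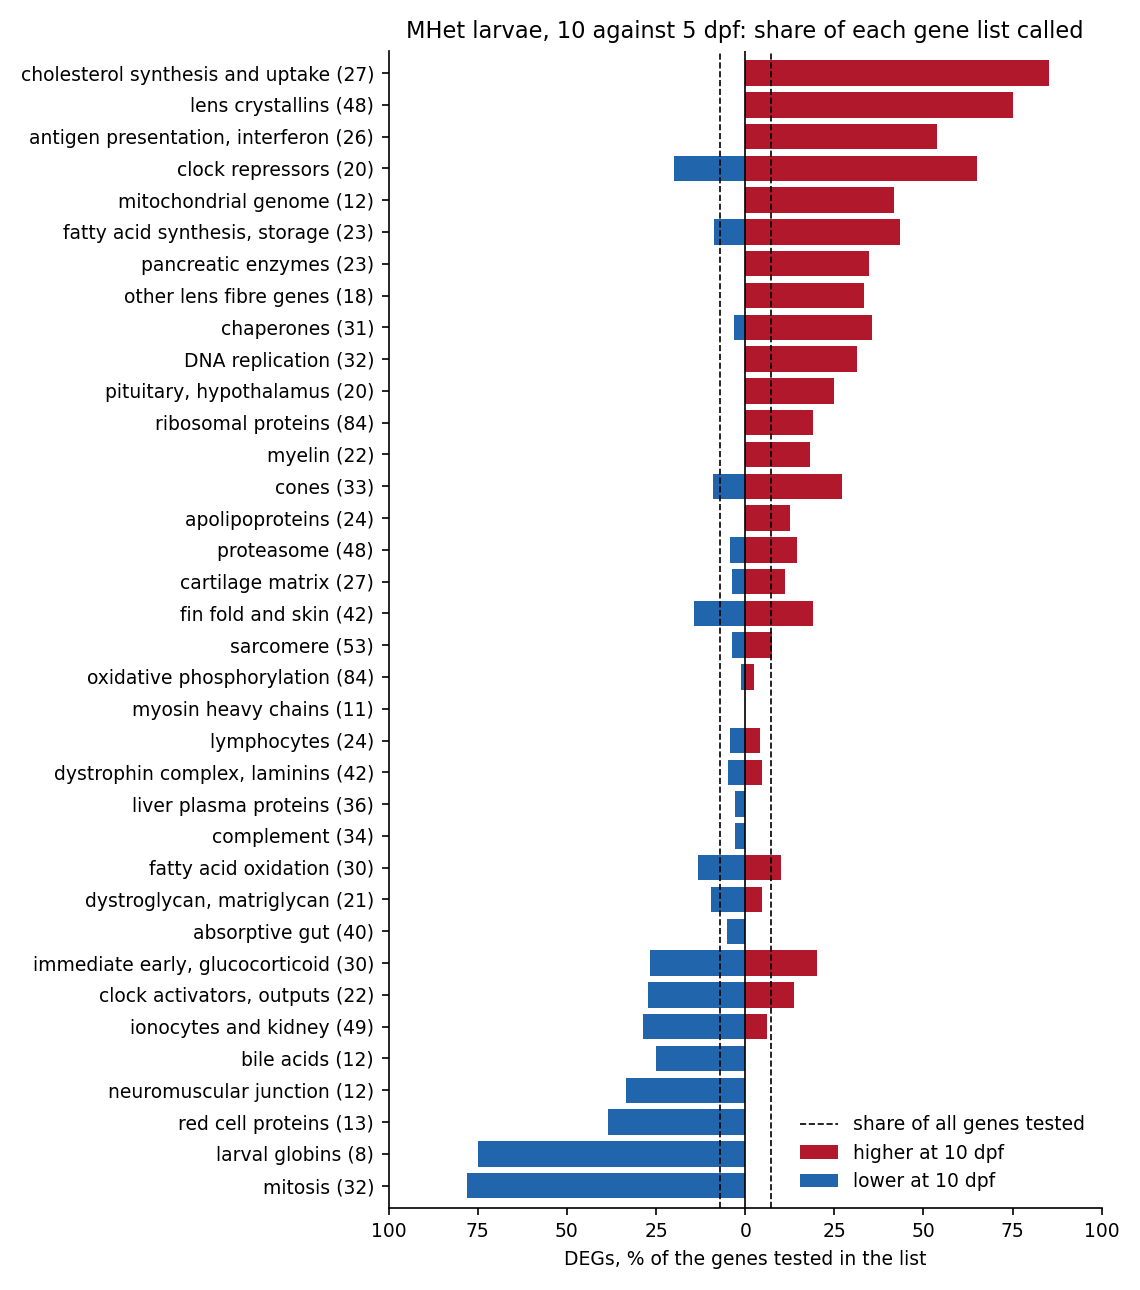
Share of the tested genes that were DEGs, in the main gene lists in MHet larvae, with genes higher at 10 dpf to the right (red) and genes lower at 10 dpf to the left (blue); the number of genes tested stands in parentheses and dashed lines mark the 7.11% and 7.16% of all genes tested. Of the lists plotted, cholesterol synthesis, lens crystallins and clock repressors reached furthest to the right, and mitosis and the larval globins furthest to the left.

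The 2 lists of cell division genes had medians of opposite sign. The Mcm helicase is loaded on chromatin in G1, and DNA replication itself takes place in S phase, whereas mitotic kinases and spindle motors are made in G2 and M. In the list of licensing, fork and S phase genes, 10 of 32 were upregulated DEGs at 10 dpf and the median log2 fold change was 0.50. The other 22 were not called, and 5 of the 32 had a negative log2 fold change. In the list of mitotic genes, 25 of 32 were downregulated DEGs and the median was -1.17. All 32 mitotic genes tested had a negative log2 fold change. Of them, 29 were lower at 10 dpf without overlap between the ages, beside 25.8% of all genes tested.

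*mcm2*, a subunit of the replicative helicase, was at 101, 88.8 and 101 CPM at 10 dpf, against 41.1, 43.1 and 43.0 CPM at 5 dpf. The 3 pools of each age were close together and the lowest 10 dpf pool stood above every 5 dpf pool (log2 fold change 1.19 ± 0.09 (SE), adjusted p = 4.26e-07). *uhrf1*, which keeps DNA methylation through replication, was at 58.8, 53.8 and 51.3 CPM at 10 dpf, against 27.7, 31.6 and 32.2 CPM at 5 dpf and rose by a smaller step (log2 fold change 0.84 ± 0.10 (SE), adjusted p = 1.98e-05). *pcna*, the sliding clamp of the polymerases, had 166 ± 1.82 CPM at 10 dpf and 103 ± 14.8 CPM at 5 dpf (SD, n = 3 each). The difference, 0.70 on the log2 scale, did not exceed the threshold. *rrm2*, a ribonucleotide reductase subunit, showed no such difference (-0.06 ± 0.15, adjusted p = 0.773).

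Among the mitotic genes, *kif11*, the motor that separates spindle poles, was at 9.76, 9.41 and 8.72 CPM at 10 dpf, against 24.7, 30.5 and 31.3 CPM at 5 dpf. Its 10 dpf pools were all below its 5 dpf pools (log2 fold change -1.63 ± 0.13 (SE), adjusted p = 4.59e-07). *tpx2*, an activator of Aurora A on the spindle, was at 11.4, 11.0 and 11.8 CPM at 10 dpf, against 28.3, 29.7 and 28.2 CPM at 5 dpf, again with no overlap (log2 fold change -1.33 ± 0.11 (SE), adjusted p = 6.68e-07). *top2a*, the topoisomerase that untangles sister chromatids, was at 30.2, 24.1 and 26.8 CPM at 10 dpf, against 49.4, 56.0 and 53.6 CPM at 5 dpf (log2 fold change -0.97 ± 0.10 (SE), adjusted p = 9.04e-06). The lead kinase of mitosis, *cdk1*, fell by a smaller amount (-0.78 ± 0.14, adjusted p = 0.000547), and *mki67*, a marker of cycling cells, had a log2 fold change of -0.39 that did not pass (adjusted p = 0.0367).

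The summed level of the mitotic genes was 283, 254 and 249 CPM at 10 dpf, against 469, 551 and 529.8 CPM at 5 dpf, and that of the replication genes was 1192, 1113 and 1161 CPM at 10 dpf, against 726, 884 and 844 CPM at 5 dpf. In a whole larva, fewer dividing cells and less RNA of these genes per cell cannot be told apart, and the same holds for every tissue list below. The number of mitotic DEGs stayed between 23 and 25 when any 1 pool was left out, whereas the 10 replication DEGs became 4 without 5 dpf pool 1.

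**Figure D2:**
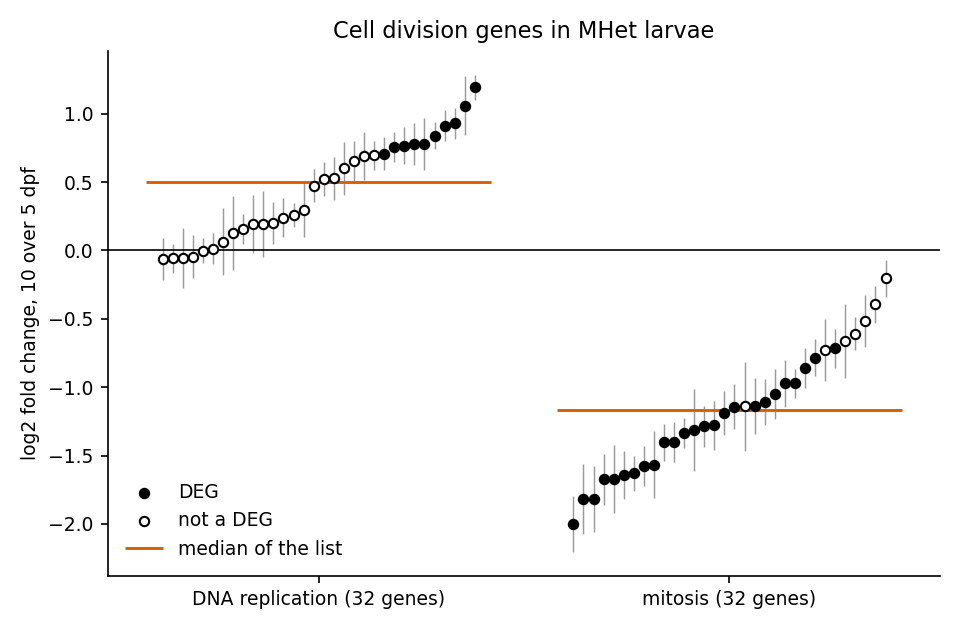
Log2 fold change, 10 dpf over 5 dpf, of each tested gene of DNA replication (left) and mitosis (right) in MHet larvae, with standard errors as grey bars; filled points are DEGs, open points are not, and orange lines are the list medians of 0.50 and -1.17. The replication genes lie mostly above 0 and all mitotic genes lie below it.

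As a second reference at the earlier age, the same 10 dpf MHet pools were set against the 3 Het pools at 5 dpf, which were +/- larvae of +/- mothers and carried batch 1 like the MHet pools of that age. Over Het, 29 mitotic genes were downregulated DEGs and the median was -1.33, and 9 replication genes were upregulated with a median of 0.33. Over all genes, 1691 rose and 1505 fell by this comparison (6.67% and 5.94% of 25346 tested). Values over this second reference are given below as over Het, and both comparisons share the 10 dpf pools.

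**Figure D3:**
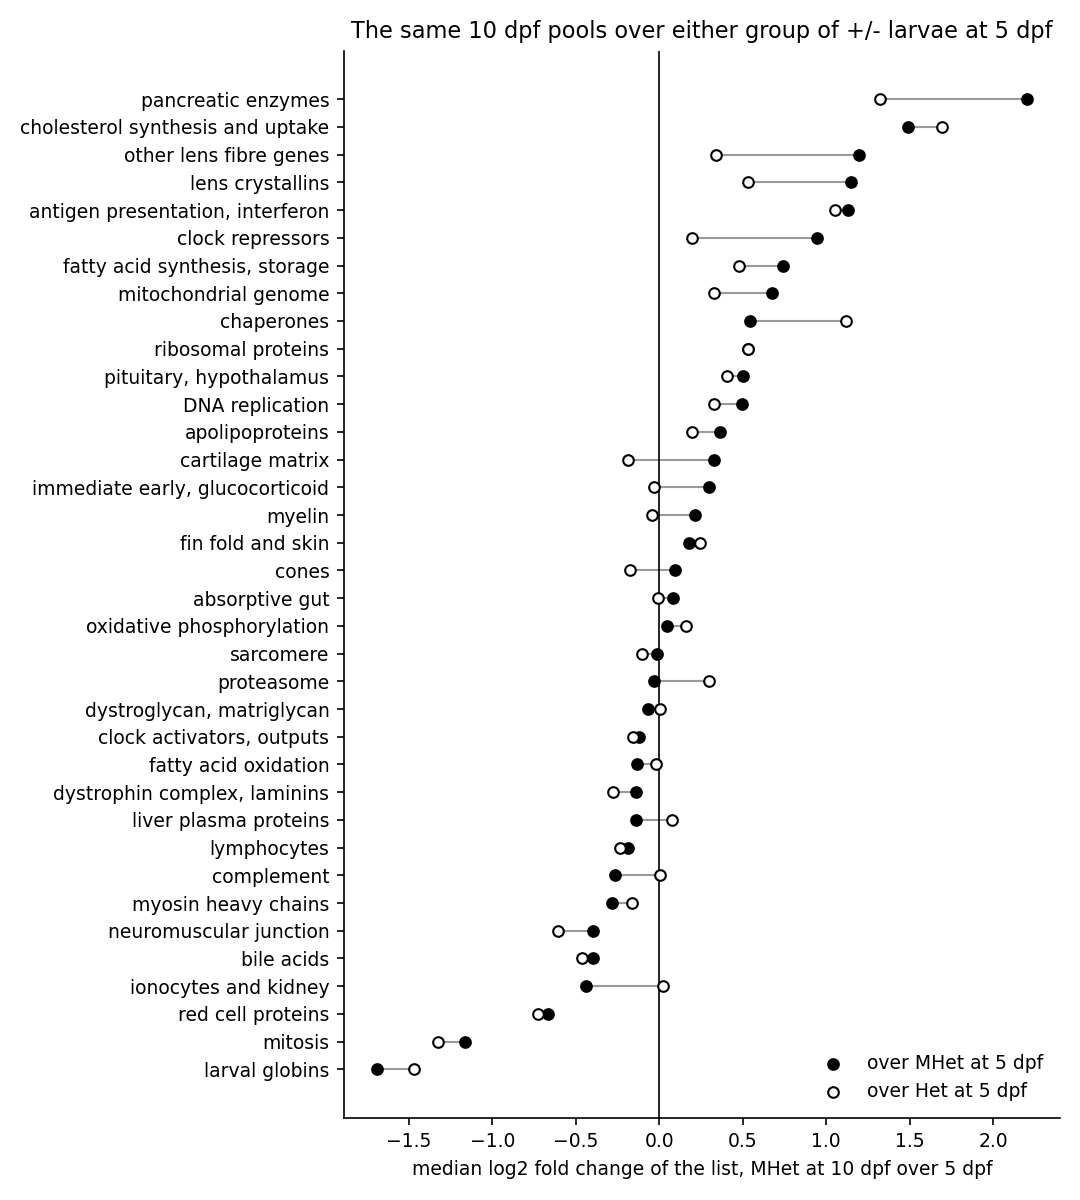
Median log2 fold change of the main gene lists in the 10 dpf MHet pools over the MHet pools at 5 dpf (filled) and over the Het pools at 5 dpf (open), both +/-, with lines joining the 2 values of a list. Mitosis lay at -1.17 and -1.33 and cholesterol synthesis at 1.49 and 1.69, whereas clock repressors lay at 0.94 and 0.20 and pancreatic enzymes at 2.20 and 1.32.

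Cholesterol synthesis was among the lists with the largest share of DEGs. Cells build cholesterol from acetyl-CoA through mevalonate, squalene and lanosterol, and the transcription factor Srebf2 turns on the enzymes of the whole route when membranes run short of sterol. Of 27 genes of synthesis and uptake tested, 23 were upregulated DEGs at 10 dpf, with a median log2 fold change of 1.49. Their summed level was 1829, 1353 and 1619.8 CPM at 10 dpf, against 448, 470.4 and 417 CPM at 5 dpf, a ratio of means of 3.59.

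*hmgcs1*, which makes the HMG-CoA that enters the mevalonate route, was at 321, 243 and 246 CPM at 10 dpf, against 33.2, 36.7 and 33.3 CPM at 5 dpf. The 5 dpf pools differed little among themselves and the 10 dpf pools were all far above them (log2 fold change 2.97 ± 0.12 (SE), adjusted p = 1.43e-09). *hmgcra*, the rate-limiting reductase of the route, was at 206, 138 and 179 CPM at 10 dpf, against 22.5, 24.1 and 20.5 CPM at 5 dpf, with 10 dpf pool 2 the lowest of its age but still above each 5 dpf pool (log2 fold change 2.96 ± 0.14 (SE), adjusted p = 4.58e-08). *sqlea*, the epoxidase that commits squalene to sterols, was at 41.5, 28.8 and 38.9 CPM at 10 dpf, against 4.13, 4.23 and 3.80 CPM at 5 dpf (log2 fold change 3.16 ± 0.15 (SE), adjusted p = 8.64e-09). The demethylase *cyp51* and the isomerase *ebp*, which act on the sterol ring system, rose as well (log2 fold changes 2.74 and 3.16, adjusted p = 0.000669 and 1.43e-09). The last reductase of the route, *dhcr7*, rose less (1.29 ± 0.14, adjusted p = 1.97e-05).

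The receptor that takes up lipoprotein cholesterol behaved differently between references. *ldlra* was at 76.6, 47.8 and 66.0 CPM at 10 dpf, against 32.0, 35.4 and 33.5 CPM at 5 dpf and was a DEG (log2 fold change 0.91 ± 0.15 (SE), adjusted p = 0.000949). It was not called without 5 dpf pool 1 (log2 fold change 0.88, adjusted p = 0.01) or without 10 dpf pool 3 (log2 fold change 0.89, adjusted p = 0.0115), and Het pools at 5 dpf averaged 58.7 CPM, against which its log2 fold change was 0.17.

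Fatty acid synthesis and fat storage showed a mixed picture, with 10 upregulated and 2 downregulated DEGs of 23 and a median of 0.74 (1 downregulated without 5 dpf pool 1). *fads2*, the desaturase that makes long polyunsaturated fatty acids, was at 231, 135 and 123 CPM at 10 dpf, against 20.8, 16.0 and 15.5 CPM at 5 dpf. Pool 1 was highest at 10 dpf, and the lowest 10 dpf pool was still more than 5 times the highest 5 dpf pool (log2 fold change 3.22 ± 0.32 (SE), adjusted p = 0.00134). *scd*, which puts the double bond into oleate, rose (1.65 ± 0.24, adjusted p = 0.000113), as did *gpam*, the first enzyme of glycerolipid assembly (0.76 ± 0.09, adjusted p = 1.99e-05). On the other side, *acacb*, the carboxylase whose product restrains mitochondrial fat entry, fell (-0.93 ± 0.10, adjusted p = 6.51e-06), but over Het its log2 fold change was -0.53 and not a DEG. *pparg*, a regulator of fat storage, was at 5.76, 3.01 and 5.79 CPM at 10 dpf, against 11.3, 15.4 and 9.80 CPM at 5 dpf and also fell (log2 fold change -1.33 ± 0.26 (SE), adjusted p = 0.00242). It was not called without 5 dpf pool 1 (log2 fold change -1.38, adjusted p = 0.0116).

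Of 30 fatty acid oxidation genes, 3 rose and 4 fell (10% and 13.3%, beside the 7.11% and 7.16% of all genes), with a median of -0.13. Over Het, 0 genes of this list rose and 0 fell. *etfdh*, which passes electrons from fatty acid oxidation to ubiquinone, fell (-1.33 ± 0.10, adjusted p = 4.14e-07), and *ppargc1b*, a coactivator of mitochondrial genes, rose (0.84 ± 0.09, adjusted p = 7.72e-06). Over Het at 5 dpf the log2 fold changes of these genes were -0.45 and 0.29, and neither was a DEG.

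The largest fall among the named genes was in *gck*, the glucokinase that traps glucose in liver cells. It was at 0.208, 0.659 and 0.623 CPM at 10 dpf, against 30.4, 16.1 and 19.3 CPM at 5 dpf, so all 10 dpf pools were under 1 CPM and all 5 dpf pools above 16 CPM (log2 fold change -5.45 ± 0.39 (SE), adjusted p = 2.69e-05). Het larvae at 5 dpf averaged 3.88 CPM, between the MHet values of the 2 ages, and over Het the log2 fold change was -2.90 (adjusted p = 0.00222). The gluconeogenic genes *pck1*, *fbp1b* and *g6pca.1* had log2 fold changes of 0.10, -0.18 and 1.07, and none of these was a DEG (adjusted p = 0.824, 0.761 and 0.153).

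Bile acids are made from cholesterol in the liver, and 3 of 12 genes of their synthesis and transport were downregulated DEGs (1 without 5 dpf pool 2). *cyp7a1*, the rate-limiting enzyme of bile acid synthesis, was at 9.76, 4.09 and 7.10 CPM at 10 dpf, against 35.7, 29.5 and 24.9 CPM at 5 dpf. All 10 dpf pools lay below the 5 dpf pools (log2 fold change -2.11 ± 0.32 (SE), adjusted p = 0.00359), although the call was lost without 5 dpf pool 2 (log2 fold change -2.12, adjusted p = 0.0145) or without 10 dpf pool 3 (log2 fold change -2.13, adjusted p = 0.0286). *nr1h4*, which encodes the bile acid receptor Fxr, was at 1.97, 1.69 and 2.12 CPM at 10 dpf, against 5.08, 6.34 and 4.35 CPM at 5 dpf and fell too (log2 fold change -1.45 ± 0.23 (SE), adjusted p = 0.000255). The bile salt export pump *abcb11b* spanned 14.2, 6.77 and 35.9 CPM at 10 dpf, a range that held all 3 of its 5 dpf values, and its log2 fold change was 0.19 (adjusted p = 0.855).

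The pools of 10 dpf larvae differed among themselves in liver genes. Plasma proteins of the liver summed to 3598, 2286 and 5796 CPM at 10 dpf, against 4439, 4425 and 4294 CPM at 5 dpf, so that the 10 dpf pools lay on both sides of the 5 dpf pools, pool 2 lowest and pool 3 highest. Of 36 plasma protein genes, 1 was a DEG, with 1 gene up and 2 down at an unadjusted p under 0.05 and 1 up and 1 down by DESeq2, and the median was -0.14. The median was 0.24 without 10 dpf pool 2 and -0.68 without 10 dpf pool 3, where 4 genes were downregulated DEGs. *tfa*, transferrin, had 420.1 ± 177 CPM at 10 dpf and 626 ± 28.6 CPM at 5 dpf (SD, n = 3 each), and *fabp10a*, the liver fatty acid binding protein, had 466 ± 219.8 CPM at 10 dpf and 348 ± 21.9 CPM at 5 dpf, and neither was a DEG (adjusted p = 0.264 and 0.427). Of 34 complement genes 1 was a DEG and the median was -0.27, and without 10 dpf pool 3 these became 6 and -0.62.

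Apolipoproteins, which carry lipid from the liver and the gut, held 3 upregulated DEGs of 24, a count that ran from 1 without 10 dpf pool 3 to 7 without 10 dpf pool 2. *apoea*, an apolipoprotein E gene, was at 484, 303 and 404 CPM at 10 dpf, against 112, 138 and 94.6 CPM at 5 dpf. The lowest 10 dpf pool was above every 5 dpf pool (log2 fold change 1.79 ± 0.20 (SE), adjusted p = 0.000322), and the call was lost without 10 dpf pool 3 (log2 fold change 1.78, adjusted p = 0.0125). *apoa1a*, a gene of the main protein of high density lipoprotein, was at 1773, 1252 and 1388 CPM at 10 dpf, against 796, 716 and 586 CPM at 5 dpf and rose (log2 fold change 1.07 ± 0.15 (SE), adjusted p = 0.000125). Its paralog *apoa1b* overlapped between the ages in raw counts, which are not scaled to library size. They were 59582, 46087 and 63467 at 10 dpf, against 69109, 60007 and 59989 at 5 dpf. *apobb.1*, which carries yolk and dietary lipid in larger particles, did not pass (log2 fold change 0.37, adjusted p = 0.404).

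Digestive enzymes of the pancreas were higher in every 10 dpf pool. Their summed level was 9419, 8036 and 10326 CPM at 10 dpf, against 2136, 1007 and 2479 CPM at 5 dpf, with 5 dpf pool 2 the lowest of all 6, and the ratio of means was 4.94. The median log2 fold change was 2.20 over 23 genes, of which 21 were positive. *prss1*, trypsin, was at 1682, 1451 and 1946 CPM at 10 dpf, against 407, 204 and 476 CPM at 5 dpf (log2 fold change 2.22 ± 0.36 (SE), adjusted p = 0.00814). *ela2l*, an elastase, was at 741, 768 and 819 CPM at 10 dpf, against 195, 97.9 and 212 CPM at 5 dpf (log2 fold change 2.20 ± 0.31 (SE), adjusted p = 0.00421), and *amy2a*, amylase, was at 208, 183 and 189 CPM at 10 dpf, against 40.4, 19.8 and 47.1 CPM at 5 dpf (log2 fold change 2.43 ± 0.35 (SE), adjusted p = 0.00627).

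The number of these enzymes called varied with the fit. The quasi-likelihood test called 8 of 23 and DESeq2 called 20. With a pool left out the count ran from 1 without 5 dpf pool 1 to 20 without 5 dpf pool 2. Each of *prss1*, *ela2l* and *amy2a* lost its call without 5 dpf pool 1 and without any single 10 dpf pool, at log2 fold changes of 1.94 to 2.47, 1.93 to 2.41 and 2.14 to 2.68 over the 6 fits with 1 pool missing. Over Het at 5 dpf, 2 enzymes were called and the median was 1.32.

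In the gut, the list of absorptive enterocyte genes held few DEGs, with 2 downregulated DEGs of 40 and a median of 0.08 (1 downregulated without 5 dpf pool 1, and 4 upregulated without 10 dpf pool 2). *slc2a5*, the fructose carrier of the brush border, was at 0.0519, 0.0941 and 0.311 CPM at 10 dpf, against 1.38, 1.54 and 0.962 CPM at 5 dpf and fell (log2 fold change -3.12 ± 0.56 (SE), adjusted p = 0.000634). The 10 dpf levels were 1, 2 and 5 counts, so the size of this change is imprecise. The peptide carrier *slc15a1b* and the structural protein *vil1* gave no call (log2 fold changes 0.10 and 0.21, adjusted p = 0.841 and 0.624). Among mucus and endocrine genes of the gut, *muc5.3*, a gel-forming mucin, was at 13.7, 7.67 and 8.91 CPM at 10 dpf, against 2.24, 2.88 and 2.11 CPM at 5 dpf and rose (log2 fold change 2.07 ± 0.24 (SE), adjusted p = 1.96e-05). Het larvae had 7.72 CPM of it at 5 dpf, against which the log2 fold change was 0.45.

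**Figure D4:**
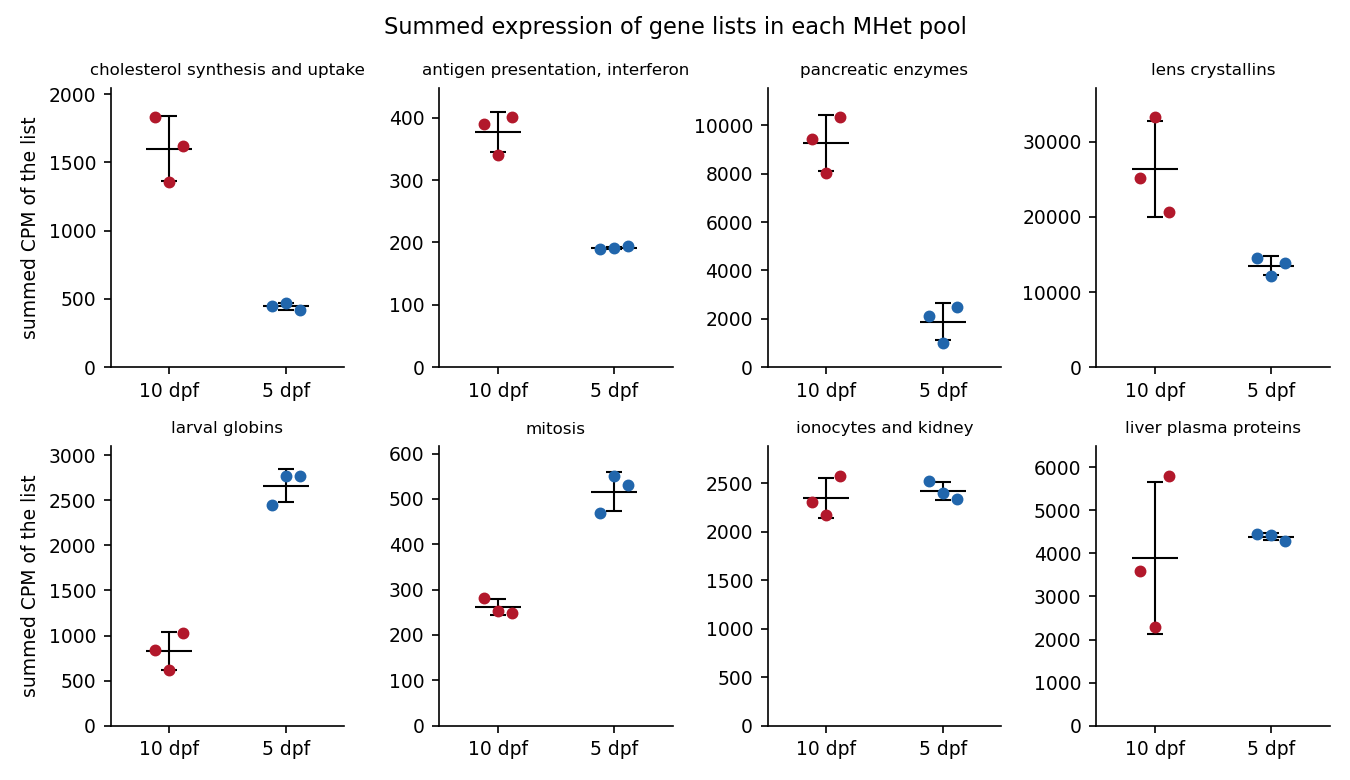
Summed CPM of 8 gene lists in each MHet pool, with points for the 3 pools at 10 dpf (red, left) and the 3 pools at 5 dpf (blue, right) and bars for mean and SD; every vertical axis is linear and starts at 0. Cholesterol synthesis, antigen presentation, pancreatic enzymes and crystallins were higher in all 10 dpf pools, larval globins and mitosis lower, and plasma proteins spread widely at 10 dpf around the 5 dpf level.

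Red blood cells of the embryo carry their own globins, made by a first wave of erythropoiesis that later gives way to definitive cells. Of 8 larval globin genes tested, 6 were downregulated DEGs, the median log2 fold change was -1.69 and the summed level was 837, 616 and 1029 CPM at 10 dpf, against 2450.0, 2768 and 2771 CPM at 5 dpf. *hbae1.1*, an alpha globin, was at 301, 189.8 and 336 CPM at 10 dpf, against 877, 1037 and 1049 CPM at 5 dpf. Pool 2 was lowest at 10 dpf, and no 10 dpf pool reached the level of a 5 dpf pool (log2 fold change -1.84 ± 0.20 (SE), adjusted p = 0.000272). The beta globin *hbbe2* fell less (-0.84 ± 0.11, adjusted p = 4.01e-05). The 4 adult globins in the table were too low for the test and were not fitted.

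Other red cell genes went the same way, with 5 of 13 called (3 without 10 dpf pool 1). *slc4a1a*, the band 3 anion exchanger of the red cell membrane, was at 10.8, 8.28 and 14.8 CPM at 10 dpf, against 48.5, 66.0 and 65.9 CPM at 5 dpf (log2 fold change -2.42 ± 0.22 (SE), adjusted p = 0.000181). *alas2*, the first enzyme of heme synthesis in red cells, was at 7.17, 5.55 and 9.53 CPM at 10 dpf, against 15.3, 17.8 and 17.1 CPM at 5 dpf (log2 fold change -1.18 ± 0.17 (SE), adjusted p = 0.00014). Both were lowest in 10 dpf pool 2, and in neither did the ages overlap. Over Het at 5 dpf their log2 fold changes were -2.11 and -1.22.

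The eye lens keeps adding fibre cells filled with crystallins throughout life. Of 48 crystallin genes tested, 36 were upregulated DEGs and the median log2 fold change was 1.15. The count ran from 25 without 10 dpf pool 1 to 41 without 10 dpf pool 3. The summed level of the crystallins was 25239.5, 33255 and 20679.7 CPM at 10 dpf, against 14593, 12082 and 13869 CPM at 5 dpf, with pool 2 highest at 10 dpf. The gamma crystallin *crygm2e*, at 14.7, 18.4 and 10.2 CPM at 10 dpf, against 1.21, 0.528 and 0.87 CPM at 5 dpf, was among the 10 upregulated DEGs with the largest fold changes over the minimum of 10 CPM (log2 fold change 4.04 ± 0.29 (SE), adjusted p = 1.54e-06). A more abundant one, *crygm2d1*, was at 997, 1495 and 1031 CPM at 10 dpf, against 527, 418 and 506 CPM at 5 dpf (log2 fold change 1.28 ± 0.16 (SE), adjusted p = 0.000117). *cryba1b*, a beta crystallin, was at 1298, 1551 and 865 CPM at 10 dpf, against 601, 493 and 553 CPM at 5 dpf (log2 fold change 1.17 ± 0.20 (SE), adjusted p = 0.00227), and was not called without 10 dpf pool 1 (log2 fold change 1.14, adjusted p = 0.0227).

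The alpha crystallin *cryaa*, a small heat shock protein of the lens, had 102 ± 38.2 CPM at 10 dpf and 25.8 ± 2.34 CPM at 5 dpf (SD, n = 3 each). The difference, 1.98 on the log2 scale, did not pass at an adjusted p of 0.0116. Among other lens fibre genes, *lim2.1*, a membrane protein of fibre cells, was at 25.6, 29.4 and 16.7 CPM at 10 dpf, against 11.1, 9.36 and 9.84 CPM at 5 dpf (log2 fold change 1.24 ± 0.19 (SE), adjusted p = 0.000414). In that list 6 of 18 were called, with 2 without 5 dpf pool 1 and 12 without 10 dpf pool 3. Both lens lists were nearer to 0 over the Het larvae. There 16 crystallins were called with a median of 0.53, and *crygm2d1* and *crygm2e* kept log2 fold changes of 0.78 and 2.66.

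Photoreceptors use an opsin to catch light and a cyclic GMP cascade to turn it into a signal. Of 24 rod genes, 1 rose and 1 fell (4.17% each, beside the 7.11% and 7.16% of all genes), with a median of -0.09. *rho*, the rod opsin, was at 1284, 1301 and 1049 CPM at 10 dpf, against 2225, 1949.7 and 1971 CPM at 5 dpf and fell (log2 fold change -0.76 ± 0.12 (SE), adjusted p = 0.000174), although not without 5 dpf pool 1 (log2 fold change -0.70, adjusted p = 0.00273) or without 10 dpf pool 3 (log2 fold change -0.66, adjusted p = 8.24e-05). *opn1lw1*, a long-wavelength cone opsin, was at 8.26, 9.55 and 7.79 CPM at 10 dpf, against 23.3, 25.0 and 23.1 CPM at 5 dpf, with each 10 dpf pool well below each 5 dpf pool (log2 fold change -1.47 ± 0.12 (SE), adjusted p = 1.02e-06). The ultraviolet opsin *opn1sw1* gave no call (log2 fold change -0.14, adjusted p = 0.302).

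Other genes of the cone cascade moved in both directions. *cngb3.2*, a subunit of the cyclic nucleotide-gated channel of cones, fell (log2 fold change -1.35, adjusted p = 3.11e-07), also over Het (-1.38). The genes *gucy2d* and *rcvrn3* rose. *gucy2d*, a guanylate cyclase that restores cyclic GMP, was at 191, 186 and 161 CPM at 10 dpf, against 70.3, 72.7 and 64.3 CPM at 5 dpf (log2 fold change 1.38 ± 0.10 (SE), adjusted p = 2.21e-07), and *rcvrn3*, a calcium sensor of the recoverin family, was at 592, 608 and 576 CPM at 10 dpf, against 293, 270.1 and 265 CPM at 5 dpf (adjusted p = 1.42e-06). Over the whole cone list 9 of 33 rose and 3 fell, with a median of 0.09. Over Het at 5 dpf the same counts were 5 and 8, so the balance of the list turned with the reference, while *gucy2d*, *rcvrn3* and *opn1lw1* were called in both (over Het 0.83, 1.56 and -1.37).

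Genes of skeletal muscle, the tissue that dystroglycan anchors to its matrix, were read as several lists. Of 11 skeletal myosin heavy chains the quasi-likelihood test and DESeq2 each called 0, with 1 up and 6 down at an unadjusted p under 0.05, and the median was -0.29. *myhz1.2*, a fast chain, came nearest (9530.3 ± 1439 CPM at 10 dpf and 15397 ± 865 CPM at 5 dpf (SD, n = 3 each), log2 fold change -0.69, adjusted p = 0.000782), and it was called in 4 of the 6 fits with 1 pool missing. The slow chain *smyhc1* had a log2 fold change of 0.27 (adjusted p = 0.0749). Of 53 other sarcomere genes, 4 rose and 2 fell (7.55% and 3.77%, beside the 7.11% and 7.16% of all genes).

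*acta1a*, a skeletal actin, was at 445, 562 and 440.3 CPM at 10 dpf, against 101, 117 and 113 CPM at 5 dpf and rose (log2 fold change 2.13 ± 0.12 (SE), adjusted p = 2.49e-08), while the abundant actin *actc1b* gave no call (-0.01 ± 0.14, adjusted p = 0.957). *mylpfb*, a fast regulatory light chain, was at 483, 502 and 336 CPM at 10 dpf, against 1617, 1734 and 1680.2 CPM at 5 dpf and fell (log2 fold change -1.93 ± 0.14 (SE), adjusted p = 4.58e-07). *pvalb1*, a calcium buffer of fast fibres, was at 5188, 5712 and 4341 CPM at 10 dpf, against 11239, 10147 and 10665 CPM at 5 dpf and fell (log2 fold change -1.07 ± 0.12 (SE), adjusted p = 1.69e-05), while *pvalb2* did not pass (-0.33 ± 0.11, adjusted p = 0.0315). Reads of near-identical paralogs such as these may be shared between them, since the handling of multi-mapping reads is not given in the sources used here.

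At the triad, where the membrane signal releases calcium, *atp2a1l*, a calcium pump of the reticulum, was at 3853, 3576 and 4215 CPM at 10 dpf, against 2045, 1929 and 1740.2 CPM at 5 dpf and rose (log2 fold change 1.03 ± 0.11 (SE), adjusted p = 1.11e-05). *hrc*, a calcium-binding protein of the reticulum, was at 49.2, 42.4 and 43.9 CPM at 10 dpf, against 86.3, 126 and 133 CPM at 5 dpf and fell (log2 fold change -1.35 ± 0.15 (SE), adjusted p = 9.91e-05). The release channel genes *ryr1b* and *ryr3* gave no call (log2 fold changes 0.32 and 0.05). *atp2a1*, a paralog of *atp2a1l*, had lower raw counts at 10 dpf. It had 121858, 113796 and 98518 at 10 dpf, against 173800, 163129 and 148730 at 5 dpf. These counts are not scaled to library size, so the size of the change cannot be read from them. Of 20 triad genes, 1 rose and 2 fell (5% and 10%, beside the 7.11% and 7.16% of all genes), with a median of -0.12.

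The postsynaptic side of the neuromuscular junction is organized by agrin acting through MuSK, with rapsyn holding the acetylcholine receptors in place. *rapsn*, which encodes rapsyn, was at 9.50, 11.1 and 9.10 CPM at 10 dpf, against 23.6, 26.5 and 24.9 CPM at 5 dpf (log2 fold change -1.33 ± 0.12 (SE), adjusted p = 2.18e-06). *musk* was at 3.22, 3.15 and 4.36 CPM at 10 dpf, against 7.92, 8.36 and 7.33 CPM at 5 dpf (log2 fold change -1.14 ± 0.19 (SE), adjusted p = 0.000321). In both genes the 3 later pools lay below the 3 earlier ones without overlap. In all, 4 of 12 junction genes were downregulated DEGs, with a median of -0.40. The myogenic factors *myog*, at 2.91, 2.96 and 2.49 CPM at 10 dpf, against 7.02, 6.82 and 7.69 CPM at 5 dpf (log2 fold change -1.36 ± 0.19 (SE), adjusted p = 7.74e-05), and *myod1* (-0.99 ± 0.16, adjusted p = 0.000257) fell as well. The ubiquitin ligase of muscle atrophy *fbxo32* had 36.2 ± 15.9 CPM at 10 dpf and 62.8 ± 10.2 CPM at 5 dpf (SD, n = 3 each) and gave no call (adjusted p = 0.185).

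*pomgnt2* itself was at 17.9, 19.0 and 14.7 CPM at 10 dpf, against 13.7, 13.7 and 17.2 CPM at 5 dpf, and was not a DEG (log2 fold change 0.22 ± 0.14 (SE), adjusted p = 0.235). By qPCR, the paper detected mutant *pomgnt2* mRNA in KO embryos. The level given here may therefore include transcripts of the mutant allele and is not read as functional transcript alone. Dystroglycan, *dag1*, the protein whose glycans these enzymes build, had 94.0 ± 3.60 CPM at 10 dpf and 84.3 ± 1.80 CPM at 5 dpf (SD, n = 3 each), without a call (0.16 ± 0.09, adjusted p = 0.161). Of 21 genes of this glycan pathway, 1 rose and 2 fell (4.76% and 9.52%, beside the 7.11% and 7.16% of all genes). *pomk*, the kinase that phosphorylates the O-mannose glycan, was at 4.26, 4.94 and 4.05 CPM at 10 dpf, against 8.31, 8.45 and 9.52 CPM at 5 dpf and fell (log2 fold change -0.98 ± 0.17 (SE), adjusted p = 0.000435). *pomt2*, part of the enzyme that adds the first mannose, fell (-0.79 ± 0.15, adjusted p = 0.000768), and *gmppb*, which makes the GDP-mannose donor, rose (0.81 ± 0.09, adjusted p = 1.33e-05).

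In the dystrophin complex and the laminins that bind it, 2 genes rose and 2 fell of 42. These were 4.76% each, under the 7.11% and 7.16% of all genes, and 1 rose and 1 fell without 5 dpf pool 1. The laminin chain *lamb1b* was at 12.2, 14.3 and 13.3 CPM at 10 dpf, against 23.9, 26.9 and 24.0 CPM at 5 dpf and fell (log2 fold change -0.91 ± 0.12 (SE), adjusted p = 3.76e-05), whereas dystrophin, *dmd*, and the muscle laminin chain *lama2* gave no call (log2 fold changes -0.15 and -0.63, adjusted p = 0.374 and 0.0136). *itga6b*, an integrin of the basal skin cell, was at 142, 109.8 and 94.1 CPM at 10 dpf, against 24.7, 33.5 and 40.3 CPM at 5 dpf and rose (log2 fold change 1.81 ± 0.23 (SE), adjusted p = 0.00134). It was not called without 10 dpf pool 2 (log2 fold change 1.85, adjusted p = 0.0101).

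Of 42 genes of the fin fold and skin, 8 rose (5 without 10 dpf pool 3) and 6 fell, with a median of 0.18. The epidermal keratins *cyt1* and *cyt1l* are type I keratins of the outer larval skin layers. *cyt1l* was at 421, 463 and 485 CPM at 10 dpf, against 2162, 2271 and 2072 CPM at 5 dpf, the ages far apart (log2 fold change -2.25 ± 0.11 (SE), adjusted p = 8.64e-09), and *cyt1* was at 1122, 1191 and 1297 CPM at 10 dpf, against 3257, 3282 and 3109 CPM at 5 dpf (log2 fold change -1.42 ± 0.11 (SE), adjusted p = 3.61e-07). Among other keratins, *krt5* had a positive log2 fold change under the fold threshold (0.68 ± 0.10, adjusted p = 0.00017) and *krt17* gave no call (0.19 ± 0.12, adjusted p = 0.223). The keratin *krt4* had lower raw counts at 10 dpf, 55583, 53926 and 50556, against 98767, 103237 and 99753 at 5 dpf. Raw counts are not scaled to library size, so the size of this change cannot be read from them. *itgb4*, the hemidesmosome integrin that ties basal skin cells to the basement membrane, was at 147, 112 and 119 CPM at 10 dpf, against 40.6, 51.1 and 56.7 CPM at 5 dpf and rose (log2 fold change 1.35 ± 0.14 (SE), adjusted p = 2.17e-05). Its Het level at 5 dpf was 83.6 CPM, and over Het the log2 fold change was 0.65 and not a DEG. The fin fold actinodin *and1* had 78.3 ± 7.36 CPM at 10 dpf and 69.2 ± 2.06 CPM at 5 dpf (SD, n = 3 each) and was not called (adjusted p = 0.153).

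Of 27 cartilage genes, 3 rose and 1 fell (11.1% and 3.70%), and of 22 bone genes, 2 rose and 1 fell (9.09% and 4.55%). Beside them stand the 7.11% up and 7.16% down of all genes. Without 5 dpf pool 1 the counts up were 1 and 1. *acana*, aggrecan, the large proteoglycan of cartilage, was at 19.7, 15.1 and 14.9 CPM at 10 dpf, against 7.84, 9.60 and 10.0 CPM at 5 dpf and rose (log2 fold change 0.85 ± 0.15 (SE), adjusted p = 0.000575). *col10a1a*, the collagen of hypertrophic cartilage and early bone, was at 10.1, 13.7 and 11.6 CPM at 10 dpf, against 6.12, 3.84 and 5.81 CPM at 5 dpf and rose (log2 fold change 1.16 ± 0.19 (SE), adjusted p = 0.000319). Het larvae at 5 dpf held 16.8 and 19.1 CPM of these genes, and over Het the log2 fold changes were 0.04 and -0.63, the second with its direction turned. The cartilage median was 0.33 over MHet and -0.19 over Het. *tcirg1a*, a subunit of the osteoclast proton pump, was at 6.34, 9.93 and 6.04 CPM at 10 dpf, against 18.0, 16.6 and 16.6 CPM at 5 dpf and fell (log2 fold change -1.19 ± 0.17 (SE), adjusted p = 0.00014). Of the 12 osteoclast genes tested, 0 rose and 2 fell (1 without 5 dpf pool 1). Their log2 fold changes were positive in 6 and negative in 6, with a median of -0.09.

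Of 13 melanophore genes, 0 rose and 2 fell (15.4% down, and 1 down without 5 dpf pool 1). Of 22 xanthophore and iridophore genes, 2 rose and 3 fell (9.09% and 13.6%), beside the 7.11% and 7.16% of all genes. Both medians were -0.31. Over Het, 0 melanophore genes rose and 7 fell, with a median of -0.76. The xanthophore and iridophore counts over Het were 1 up and 4 down, with a median of -0.19. *mitfa*, the master factor of melanophores, was at 0.415, 0.47 and 0.872 CPM at 10 dpf, against 2.71, 2.11 and 2.34 CPM at 5 dpf and fell (log2 fold change -2.05 ± 0.36 (SE), adjusted p = 0.00049), while the pigment enzyme *tyr* gave no call (0.20 ± 0.27, adjusted p = 0.605). Of the xanthophore genes, *gch2*, the first enzyme of pteridine synthesis, was at 50.6, 42.9 and 46.7 CPM at 10 dpf, against 17.7, 14.0 and 11.9 CPM at 5 dpf and rose over MHet (log2 fold change 1.68 ± 0.14 (SE), adjusted p = 1.11e-06). Het larvae already had 55.8 CPM at 5 dpf, and over Het the log2 fold change was -0.20, of the opposite sign.

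Ionocytes are skin and gill cells that take up calcium, sodium and chloride from fresh water or excrete acid and ammonia. Of 49 ionocyte and kidney genes, 3 rose (5 without 5 dpf pool 2) and 14 fell, with a median of -0.44. The number that fell ran from 10 without 5 dpf pool 1 to 19 without 10 dpf pool 3. *trpv6*, the calcium channel of the calcium-absorbing ionocyte, was at 2.86, 1.88 and 5.30 CPM at 10 dpf, against 21.4, 22.6 and 27.8 CPM at 5 dpf (log2 fold change -2.87 ± 0.33 (SE), adjusted p = 0.000671). *foxi3a*, a transcription factor that specifies ionocytes, was at 1.82, 1.79 and 2.87 CPM at 10 dpf, against 10.1, 5.71 and 7.69 CPM at 5 dpf (log2 fold change -1.88 ± 0.26 (SE), adjusted p = 7.73e-05). All 10 dpf pools were below all 5 dpf pools in both. Over Het the log2 fold changes were -3.64 and -1.42.

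*rhcga*, an ammonia channel of the Rhesus family in ionocytes, rose over MHet, at 39.1, 38.9 and 47.4 CPM at 10 dpf, against 4.52, 2.40 and 4.03 CPM at 5 dpf (log2 fold change 3.51 ± 0.19 (SE), adjusted p = 3.08e-07). Yet Het larvae averaged 44.3 CPM at 5 dpf, close to the 10 dpf MHet level, and over Het the log2 fold change was -0.02 (adjusted p = 0.957). *slc12a3*, a sodium chloride cotransporter, fell over MHet (-0.96 ± 0.14, adjusted p = 0.000195) but had 16.6 CPM in Het, with a log2 fold change of 0.38 over them. Over Het, 5 genes of the list rose and 4 fell, with a median of 0.02.

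The circadian clock is a feedback loop in which Clock and Bmal (Arntl) proteins switch on *per*, *cry* and *nr1d* genes, whose products then repress them, so the level of each transcript depends on the hour. Of 20 genes of the repressor arm, 13 rose and 4 fell at 10 dpf over MHet at 5 dpf. *nr1d1*, which encodes the repressor Rev-erb alpha, was at 160.1, 166 and 136 CPM at 10 dpf, against 22.7, 18.3 and 15.2 CPM at 5 dpf (log2 fold change 3.04 ± 0.14 (SE), adjusted p = 3.55e-08). *per1b* was at 144, 163 and 153 CPM at 10 dpf, against 40.0, 39.1 and 32.9 CPM at 5 dpf (log2 fold change 2.04 ± 0.10 (SE), adjusted p = 1.1e-08). In both genes the 10 dpf pools lay far above the 5 dpf pools.

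Of 22 genes of the activator arm and clock outputs, 3 rose and 6 fell, with a median of -0.12 (1 and 3 over Het). Among those that fell, *clocka* was at 4.41, 4.70 and 5.23 CPM at 10 dpf, against 12.0, 11.7 and 9.43 CPM at 5 dpf (log2 fold change -1.21 ± 0.17 (SE), adjusted p = 7.36e-05) and *arntl1a* at 15.8, 14.4 and 12.6 CPM at 10 dpf, against 36.2, 31.3 and 32.6 CPM at 5 dpf (log2 fold change -1.22 ± 0.12 (SE), adjusted p = 2.93e-06). Within the repressors, *cry1bb* opposed *per1b*, at 50.7, 59.5 and 48.0 CPM at 10 dpf, against 180.1, 149 and 165 CPM at 5 dpf (log2 fold change -1.64 ± 0.11 (SE), adjusted p = 9.21e-08). Each of these 5 genes was called in all 6 fits with 1 pool missing, and *clocka* and *arntl1a* were DEGs over Het too. Het larvae at 5 dpf had 138 CPM of *nr1d1* and 152 CPM of *per1b*, close to the 10 dpf MHet levels. Over Het the log2 fold changes were 0.22 for *nr1d1*, 0.07 for *per1b*, 0.42 for *cry1bb*, -0.97 for *clocka* and -0.84 for *arntl1a*, and the repressor arm held 2 DEGs up and 2 down. Hour of sampling was not recorded in the sources used here, and its part in these values was not tested.

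Of 30 glucocorticoid targets and immediate early genes, 6 rose (11 without 10 dpf pool 3) and 8 fell, against 3 and 10 over Het. *fkbp5*, a chaperone induced by the glucocorticoid receptor, was at 516, 488 and 379 CPM at 10 dpf, against 76.4, 88.9 and 88.8 CPM at 5 dpf (log2 fold change 2.44 ± 0.13 (SE), adjusted p = 1.61e-08), and *klf9*, another target of that receptor, was at 54.1, 52.4 and 62.0 CPM at 10 dpf, against 22.1, 21.2 and 23.2 CPM at 5 dpf (log2 fold change 1.34 ± 0.10 (SE), adjusted p = 3.28e-07). In Het larvae at 5 dpf they averaged 309.9 and 97.5 CPM, and over Het the log2 fold changes were 0.63 and -0.74, the second turned. Immediate early genes encode factors made within minutes of a stimulus. *junbb* was at 38.8, 43.0 and 37.6 CPM at 10 dpf, against 154, 133 and 143 CPM at 5 dpf (log2 fold change -1.85 ± 0.10 (SE), adjusted p = 1.82e-08), and *ier2a* was at 17.8, 22.2 and 18.1 CPM at 10 dpf, against 81.6, 65.0 and 80.5 CPM at 5 dpf (log2 fold change -1.96 ± 0.12 (SE), adjusted p = 4.65e-08), and both fell over Het too (log2 fold changes -1.38 and -1.60).

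Cells display peptides cut by the immunoproteasome on MHC class I molecules, and professional cells load MHC class II with help from the invariant chain. Of 26 genes of antigen presentation, 14 were upregulated DEGs, with a median of 1.13, and over Het the count was 14. *b2m*, the light chain of MHC class I, was at 11.6, 10.7 and 9.78 CPM at 10 dpf, against 1.85, 1.01 and 1.51 CPM at 5 dpf (log2 fold change 2.86 ± 0.22 (SE), adjusted p = 4.23e-07). *mhc1zba*, a class I heavy chain, was at 108, 94.3 and 119 CPM at 10 dpf, against 25.2, 29.0 and 26.2 CPM at 5 dpf (log2 fold change 2.00 ± 0.11 (SE), adjusted p = 2.04e-08). *cd74a*, an invariant chain gene, was at 2.34, 1.74 and 1.74 CPM at 10 dpf, against 0.517, 0.624 and 0.458 CPM at 5 dpf (log2 fold change 1.86 ± 0.35 (SE), adjusted p = 0.000933). The 10 dpf pools lay above the 5 dpf pools in all 3. Over Het, *b2m* had a smaller log2 fold change of 1.52 and *cd74a* a larger one of 2.17, and both were DEGs.

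*psmb8a*, a catalytic subunit of the immunoproteasome, had 1.25, 1.93 and 1.50 CPM at 10 dpf, against 0, 0.048 and 0 CPM at 5 dpf, where a single count was found in the 3 pools together (adjusted p = 2e-05). Its cap subunit *psme2* was at 12.6, 8.23 and 9.03 CPM at 10 dpf, against 2.15, 1.92 and 2.66 CPM at 5 dpf (log2 fold change 2.14 ± 0.22 (SE), adjusted p = 5.2e-06). Over the 48 proteasome genes, these included, 7 rose and 2 fell with a median of -0.03, and *psma1*, a subunit of the ordinary core, gave no call (-0.16 ± 0.10, adjusted p = 0.196). *psme4a*, a nuclear activator of the proteasome, was at 25.9, 28.4 and 29.5 CPM at 10 dpf, against 125, 91.8 and 110.3 CPM at 5 dpf and fell (log2 fold change -1.97 ± 0.12 (SE), adjusted p = 3.89e-08).

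The 33 lymphocyte genes summed to 271, 324 and 259 CPM at 10 dpf, against 323, 311 and 328 CPM at 5 dpf, and of the 24 tested 1 rose (0 without 5 dpf pool 1) and 1 fell (2 without 10 dpf pool 3). *foxn1*, the factor that makes the thymic epithelium, was at 0.623, 0.659 and 0.561 CPM at 10 dpf, against 1.64, 3.51 and 2.56 CPM at 5 dpf and fell (log2 fold change -2.04 ± 0.36 (SE), adjusted p = 0.000573). *rag1*, the recombinase of developing T and B cells, had 0.937 ± 0.398 CPM at 10 dpf and 2.08 ± 0.19 CPM at 5 dpf (SD, n = 3 each), and *lck*, a T cell kinase, had 0.201 ± 0.0927 CPM at 10 dpf and 0.736 ± 0.201 CPM at 5 dpf, neither a DEG (adjusted p = 0.0169 and 0.0159). In the myeloid list 5 of 34 rose (2 without 5 dpf pool 1) and 1 fell, with a median of 0.11. Over Het, 2 myeloid genes rose and 3 fell. *marco*, a scavenger receptor of macrophages, was at 4.78, 5.41 and 7.04 CPM at 10 dpf, against 2.20, 1.82 and 2.84 CPM at 5 dpf (log2 fold change 1.32 ± 0.24 (SE), adjusted p = 0.000602), and Het larvae averaged 4.87 CPM at 5 dpf, with a log2 fold change over them of 0.29. The neutrophil enzyme *mpx* gave no call (0.10 ± 0.25, adjusted p = 0.79).

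In the nervous system, 4 of 47 mature markers were upregulated DEGs (8.51%, beside the 7.11% of all genes) and 0 fell. *gabra6a*, a GABA receptor subunit of cerebellar granule cells, was at 43.9, 39.4 and 32.1 CPM at 10 dpf, against 17.3, 16.2 and 15.4 CPM at 5 dpf and rose (log2 fold change 1.24 ± 0.12 (SE), adjusted p = 3.79e-06). *slc1a3b*, a glutamate carrier of glia, was at 147, 125 and 110.4 CPM at 10 dpf, against 55.0, 70.3 and 58.9 CPM at 5 dpf and rose (log2 fold change 1.05 ± 0.12 (SE), adjusted p = 2.32e-05). Of 39 genes of neuronal growth, 1 rose and 4 fell, with a median of -0.09 (0 and 1 over Het). These were 2.56% and 10.3%, beside the 7.11% and 7.16% of all genes. In this list, *neurod1* was at 101, 99.4 and 77.2 CPM at 10 dpf, against 189, 162 and 173 CPM at 5 dpf and fell (log2 fold change -0.91 ± 0.11 (SE), adjusted p = 2.95e-05), as did *sox4a* (-0.91 ± 0.11, adjusted p = 2.01e-05), both transcription factors of young neurons. *elavl3*, a marker of all neurons, gave no call (-0.03 ± 0.11, adjusted p = 0.869). Over Het the log2 fold changes were 0.40, 0.33, -0.66 and -0.79, of which that of *sox4a* was a DEG.

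Myelin wraps axons in the brain and in the nerves. Of 22 myelin genes, 4 rose and 0 fell, 8 had a negative log2 fold change and the median was 0.21. Over Het, 1 rose and 2 fell, with a median of -0.04. *mbpa*, the basic protein of the sheath, was at 130.1, 147 and 102 CPM at 10 dpf, against 60.8, 62.7 and 76.0 CPM at 5 dpf (log2 fold change 0.93 ± 0.13 (SE), adjusted p = 0.000243), and *plp1b*, its main membrane protein in the brain, was at 40.9, 41.9 and 31.1 CPM at 10 dpf, against 21.3, 20.8 and 23.4 CPM at 5 dpf (log2 fold change 0.80 ± 0.12 (SE), adjusted p = 0.000145). Their levels in Het at 5 dpf, 89.8 and 32.3 CPM, lay between the means of the MHet ages, and over Het neither was a DEG (0.56 and 0.30). The unnamed gene *zgc:153846*, counted with this list, was at 108, 159.9 and 65.3 CPM at 10 dpf, against 4.00, 4.23 and 4.85 CPM at 5 dpf, with pool 2 highest and pool 3 lowest at 10 dpf (log2 fold change 4.67 ± 0.44 (SE), adjusted p = 0.00154). It was not called without 5 dpf pool 1 (log2 fold change 4.61, adjusted p = 0.0114) or without 5 dpf pool 2 (log2 fold change 4.65, adjusted p = 0.0116).

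Hormone genes named by the rule included both signals and receptors. Of 20 pituitary and hypothalamus genes, 5 rose and 0 fell, with a median of 0.50, and 2 to 4 rose with 1 pool left out. Of 39 peripheral hormone genes, 3 rose and 4 fell (7.69% and 10.3%, beside the 7.11% and 7.16% of all genes), with a median of 0.06. *npy*, a feeding peptide of the hypothalamus, was at 8.57, 11.0 and 9.72 CPM at 10 dpf, against 4.65, 4.27 and 4.99 CPM at 5 dpf (log2 fold change 1.07 ± 0.17 (SE), adjusted p = 0.000211), and *oxt*, oxytocin, was at 8.52, 13.5 and 8.91 CPM at 10 dpf, against 5.90, 4.95 and 4.90 CPM at 5 dpf (log2 fold change 0.97 ± 0.19 (SE), adjusted p = 0.00132). Both rose without overlap. In the thyroid axis, *thrb*, a thyroid hormone receptor that cones also use, was at 87.7, 98.5 and 78.2 CPM at 10 dpf, against 44.0, 45.6 and 47.2 CPM at 5 dpf (log2 fold change 0.95 ± 0.10 (SE), adjusted p = 7.09e-06), and *dio3b*, the deiodinase that inactivates the hormone, was at 36.3, 27.0 and 35.5 CPM at 10 dpf, against 13.3, 13.5 and 11.9 CPM at 5 dpf (log2 fold change 1.35 ± 0.13 (SE), adjusted p = 3.16e-06). Among steroid and growth genes, *cyp17a1*, an enzyme of steroid synthesis, was at 2.23, 1.79 and 2.74 CPM at 10 dpf, against 11.7, 10.5 and 11.0 CPM at 5 dpf and fell (log2 fold change -2.30 ± 0.19 (SE), adjusted p = 8.65e-07). *ghrb*, a growth hormone receptor, was at 11.6, 18.5 and 15.9 CPM at 10 dpf, against 29.0, 35.8 and 31.9 CPM at 5 dpf and fell (log2 fold change -1.07 ± 0.15 (SE), adjusted p = 0.000203). Over Het at 5 dpf *oxt* and *dio3b* rose too (0.97 and 0.88) and *cyp17a1* and *ghrb* fell (-1.15 and -2.01), whereas *npy* and *thrb* were not DEGs (0.67 and 0.38).

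Of 84 cytosolic ribosomal protein genes, 81 had a positive log2 fold change and the median was 0.53, under the 0.7 of a DEG, and 16 were called. *rpl29* was at 518, 650.0 and 639 CPM at 10 dpf, against 259, 243 and 266 CPM at 5 dpf (log2 fold change 1.23 ± 0.11 (SE), adjusted p = 1.7e-06), and *rps28* was at 765, 855 and 857 CPM at 10 dpf, against 414, 353 and 396 CPM at 5 dpf (log2 fold change 1.09 ± 0.10 (SE), adjusted p = 3.27e-06). The count of called genes ran from 11 without 10 dpf pool 3 to 33 without 10 dpf pool 1, and over Het it was 15. Genes of the mitochondrial genome had a median of 0.68 with 5 of 12 called, 2 without 5 dpf pool 1 and 1 over Het. *mt-nd3*, a complex I subunit, was at 478, 657 and 549 CPM at 10 dpf, against 194, 221 and 235 CPM at 5 dpf (log2 fold change 1.37 ± 0.12 (SE), adjusted p = 2.06e-06). Nuclear genes of oxidative phosphorylation stayed near 0, with 2 up and 1 down of 84 and a median of 0.05.

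Chaperones rose in 11 of 31 and fell in 1, and over Het the counts were 17 and 1. *hsp90aa1.1*, the Hsp90 that folds myosin in muscle, was at 324, 253 and 323 CPM at 10 dpf, against 46.3, 79.1 and 69.4 CPM at 5 dpf (log2 fold change 2.21 ± 0.21 (SE), adjusted p = 0.000186). *hspa4a*, a helper of Hsp70, was at 139, 118 and 140.4 CPM at 10 dpf, against 54.3, 58.3 and 48.7 CPM at 5 dpf (log2 fold change 1.30 ± 0.10 (SE), adjusted p = 5.58e-07). *ahsa1a*, an activator of the Hsp90 ATPase, was the member that fell, at 0.779, 0.894 and 0.498 CPM at 10 dpf, against 7.67, 7.97 and 5.27 CPM at 5 dpf (log2 fold change -3.23 ± 0.28 (SE), adjusted p = 1.24e-06). The heat-inducible *hsp70l* gave no call (0.07 ± 0.27, adjusted p = 0.855).

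By the rule of largest fold changes among genes with at least 10 CPM and no overlap, the upregulated genes included several without a functional name. *LOC100535095*, a long noncoding RNA in RefSeq, was at 98.9, 103 and 151 CPM at 10 dpf, against 0.947, 1.58 and 1.47 CPM at 5 dpf (log2 fold change 6.47 ± 0.25 (SE), adjusted p = 1.02e-06). *si:dkey-7c18.24* was at 935, 1032 and 1088 CPM at 10 dpf, against 93.8, 74.5 and 91.8 CPM at 5 dpf (log2 fold change 3.55 ± 0.12 (SE), adjusted p = 3.5e-10). *BX936456.1* had the largest log2 fold change of the set, 6.75, on 15.4, 53.6 and 15.6 CPM at 10 dpf, with pool 2 far above the others, against 0.215, 0.24 and 0.321 CPM at 5 dpf, and it was called in 1 of the 6 fits with 1 pool missing. The ribosomal RNA gene *zgc:158463* was itself in this set (3.60 ± 0.40, adjusted p = 0.00191), and its call was lost without 10 dpf pool 1 (log2 fold change 3.64, adjusted p = 0.0144) or without 10 dpf pool 3 (log2 fold change 3.46, adjusted p = 0.0136).

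Among the downregulated genes of the same rule, after *gck*, *hmox1a*, the heme oxygenase that breaks down heme, was at 0.571, 0.517 and 0.436 CPM at 10 dpf, against 23.1, 12.6 and 21.3 CPM at 5 dpf (log2 fold change -5.20 ± 0.29 (SE), adjusted p = 9.75e-08). *ch25hl1.1*, a cholesterol 25-hydroxylase by name, was at 2.28, 1.60 and 2.49 CPM at 10 dpf, against 21.5, 17.0 and 18.4 CPM at 5 dpf (log2 fold change -3.17 ± 0.19 (SE), adjusted p = 3.57e-08). *foxq1a*, a forkhead transcription factor, was at 2.70, 1.93 and 3.86 CPM at 10 dpf, against 28.8, 29.6 and 33.3 CPM at 5 dpf (log2 fold change -3.46 ± 0.19 (SE), adjusted p = 5.66e-08). *zp3a.2*, an egg coat protein gene, was at 1.09, 2.16 and 0.934 CPM at 10 dpf, against 15.4, 10.0 and 16.9 CPM at 5 dpf (log2 fold change -3.30 ± 0.31 (SE), adjusted p = 2.96e-05). The ages did not overlap in any of the 4, as the rule required, and over Het at 5 dpf all 4 fell (log2 fold changes -3.58, -2.41, -2.19 and -2.67).

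The same ages were sampled in the MZKO siblings, which were -/- and carried the same batch numbers as MHet at each age. In the fit of both genotypes, 1885 genes rose and 2772 fell in MZKO larvae at 10 dpf relative to 5 dpf (7.62% and 11.2% of 24738 tested, 18.8% in either direction). Of the MHet DEGs, 834 of 1694 upregulated genes were upregulated DEGs in MZKO too, or 49.2% of the MHet and 44.2% of the MZKO list, and 6 had the opposite call. For downregulated genes the shared number was 900 of 1707, or 52.7% of the MHet and 32.5% of the MZKO list, with 2 opposite. The 2 comparisons set no pool in common against each other, but the fit behind the MZKO calls also held the 6 MHet pools. In that fit 1721 genes rose and 1732 fell in MHet larvae.

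The difference between the genotypes in the change with age was tested directly, as the interaction. In the fit of these 12 pools, 219 genes changed more positively in MZKO than in MHet (0.885%) and 435 more negatively (1.76%), together 2.64% of the genes tested. The medians had the same sign in both genotypes in 42 of 54 lists. Larval globins had -2.48 in MZKO and -1.69 in MHet, crystallins 1.60 and 1.15, and cholesterol synthesis 1.06 and 1.49.

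Plasma protein genes had a median of -2.19 in MZKO, against -0.14 in MHet, and complement genes had -2.08 in MZKO, against -0.27 in MHet. The edgeR interaction called 0 of 37 plasma protein genes and 0 of 35 complement genes tested in the 12 pools. DESeq2 called 14 and 7, all more negative in MZKO, an unadjusted p under 0.05 was found for 30 and 21, all negative, and without MHet 10 dpf pool 2 edgeR called 13 and 2. For *tfa* the changes were -3.26 in MZKO and -0.58 in MHet, and the difference of -2.69 did not pass (adjusted p = 0.016), though it did by DESeq2 (adjusted p = 2.46e-05), in the fit of all 21 pools and without MHet 10 dpf pool 2 (adjusted p = 0.00345). In the list of the dystrophin complex and laminins, 8 of 42 genes changed more negatively in MZKO by the interaction test, and in the sarcomere list 9 of 53 did (3 without MHet 5 dpf pool 1), beside the 1.76% of all genes. Without MHet 5 dpf pool 1 the interaction called 245 genes, and without MHet 10 dpf pool 2 it called 1154.

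*ghrb*, which fell in MHet, had log2 fold changes of 0.35 in MZKO and -1.07 in MHet, a difference of 1.42 (edgeR interaction, adjusted p = 0.0038), and this call was lost without MHet 5 dpf pool 2 or 3, any 1 MZKO 5 dpf pool, MHet 10 dpf pool 3 or MZKO 10 dpf pool 2 (differences of 1.33 to 1.45, adjusted p of 0.0102 to 0.0142). *gch2* had -0.15 in MZKO and 1.68 in MHet, a difference of -1.83 (adjusted p = 0.000312). *uhrf1* had 0.08 in MZKO and 0.84 in MHet, a difference of -0.76 (adjusted p = 0.00718), which no longer passed without any 1 of the 6 pools of 5 dpf, or without MHet 10 dpf pool 1 or MZKO 10 dpf pool 1 or 2 (differences of -0.80 to -0.64, adjusted p of 0.0106 to 0.0273). For *gck* the changes were -5.07 in MZKO and -5.45 in MHet, and for *hmgcs1* they were 2.12 and 2.97, and neither difference passed the interaction test (adjusted p = 0.819 and 0.225).

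**Figure D5:**
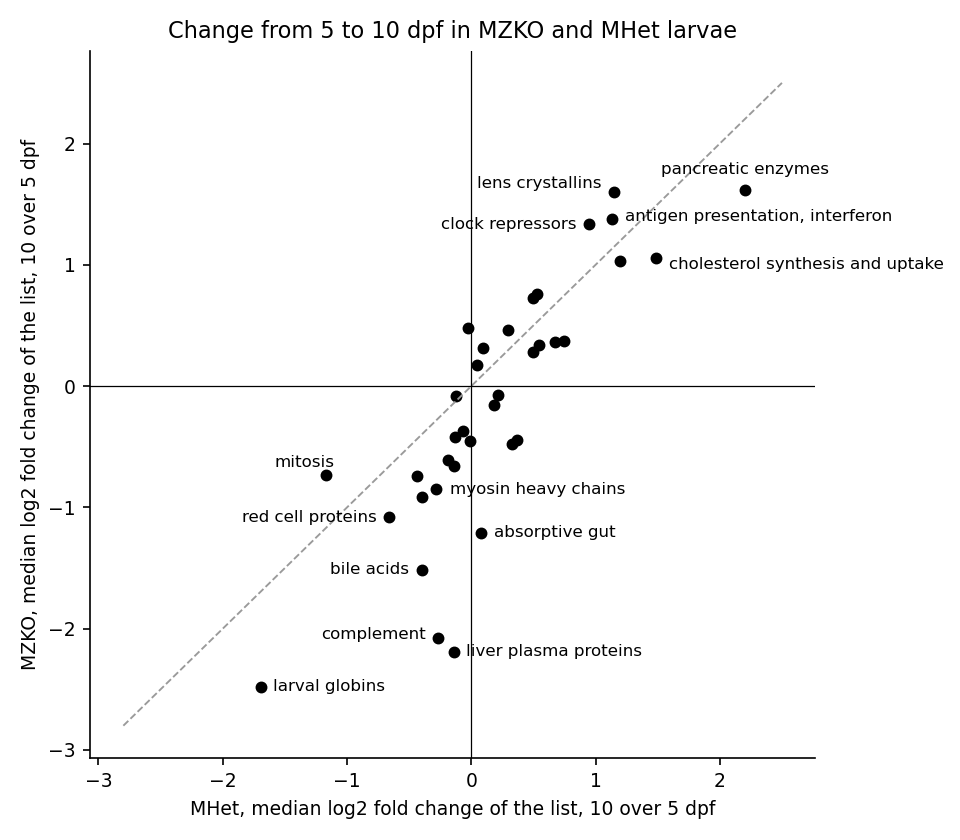
Median log2 fold change of the main gene lists from 5 to 10 dpf, in MZKO larvae on the vertical axis and in MHet larvae on the horizontal axis; each point is a list and the dashed line marks equal medians. Crystallins and cholesterol synthesis lie high in both, larval globins low in both, and plasma protein and complement genes lie near -2 in MZKO and near 0 in MHet.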

How the data were processed

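RNA of pools of 4 to 6 whole larvae had been made into directional poly-A libraries. Per the labels and methods, the authors trimmed and quality-filtered reads (Trim Galore), aligned them to GRCz11/danRer11 (HISAT2, SAMtools) and deposited raw counts per gene from featureCounts with the Lawson annotation. The strand and multi-mapping options are not given in the sources used here.

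The deposited counts of the 6 MHet pools were fitted with edgeR 4.0.16 in R 4.3.3 (filterByExpr, TMM scaling, robust quasi-likelihood F test, two-sided), which kept 23826 of 36351 genes. P-values were adjusted by Benjamini-Hochberg over all genes tested. DEGs passed 0.01 after adjustment and a fold threshold of 0.7 on the log2 scale, in either direction. CPM used TMM-scaled totals, and standard errors were taken as |log2 fold change|/√F. The interaction and the MZKO change came from a fit of the 12 MHet and MZKO pools, and the Het reference from a fit of all 21. Totals of 16959935 to 22439739 counts, scaled by TMM, set the floor of 3 counts at 0.129 to 0.187 CPM, which covers counting error only. Replicates of each group differed by more than sampling noise.

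Named genes were key members of 55 lists, the 10 DEGs in each direction with the largest fold change over 10 CPM and no overlap, the top 2 DEGs per list and direction by p, and the 5 top interaction genes in each direction. Members and lists were chosen with earlier results of these data known. Alternatives were DESeq2 1.42.0, its size factors, other filters and thresholds, a replicate block, larger fits, the Het reference and leaving out each pool. RefSeq gene types came from a table of another assembly, used for names only. No sequence was used here. The values of 1 tissue marker are not reported here.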

Additional observations from a re-analysis of the deposited data

Results flagged for a closer look

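The change from 5 to 10 dpf differed between MZKO and MHet larvae in 10 named genes, the 5 positive and 5 negative differences with the smallest p in the edgeR interaction test over 12 pools. Each of the 10 was called again in all 12 fits that left out a pool, and by DESeq2. No explanation was tested for any of them.

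*tnks1bp1* had a log2 fold change of 1.61 in MZKO and -1.30 in MHet, a difference of 2.92 (adjusted p = 7.91e-06). The changes of *acin1a* were 0.38 in MZKO and -0.79 in MHet, which differed by 1.18 (adjusted p = 7.11e-05). For *fam133b* they were 0.64 in MZKO and -0.48 in MHet, a difference of 1.11 (adjusted p = 0.000162). *cngb3.2*, a subunit of the cyclic nucleotide-gated channel of cones, fell in MHet (-1.35), was at -0.15 in MZKO and differed by 1.20 (adjusted p = 0.000162). In *si:dkey-239h2.3* the change was 1.96 in MZKO and -0.17 in MHet, 2.13 apart (adjusted p = 0.000308).

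On the negative side, *adpgk2* had -2.03 in MZKO and 1.49 in MHet, a difference of -3.51 (adjusted p = 2.35e-06). *snx6*, a sorting nexin, had -1.07 in MZKO and 1.34 in MHet, which differed by -2.40 (adjusted p = 2.34e-05). *acvr2ba*, an activin receptor, had -0.25 in MZKO and 2.04 in MHet, a difference of -2.29 (adjusted p = 6.81e-05). *adss*, an adenylosuccinate synthase, was at -0.52 in MZKO and 0.69 in MHet, with a difference of -1.20 (adjusted p = 3.11e-05). *pcyox1* was at -0.99 in MZKO and 0.40 in MHet, with a difference of -1.39 (adjusted p = 0.000158).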

How the results depend on the processing

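The count of MHet DEGs stayed within 1.5 times of 1694 up and 1707 down under DESeq2, its size factors, both count filters, the larger fits, the Het reference and an adjusted p under 0.05, and leaving out a pool gave 1319 to 1708 up, 1269 to 1843 down and 2588 to 3551 in all. Over Het, 844 of the 1694 and 902 of the 1707 were called again in the same direction and 4 were called in the other. With no fold threshold 5839 genes were called, 3027 up and 2812 down. The interaction was less stable. DESeq2 called 1332 genes, 458 higher and 874 lower, an adjusted p under 0.05 gave 1782 with 611 higher and 1171 lower, and the fit of all 21 samples gave 343 higher. Leaving out a pool gave 245 to 1154 interaction genes, with 74 to 389 higher and 171 to 765 lower. The cause of these shifts was not tested. Of 118 named genes that were DEGs over MHet, 83 were DEGs over Het at 5 dpf, counted in either direction. Over Het at 5 dpf the log2 fold change had the opposite sign for *col10a1a* (-0.63), *cry1bb* (0.42), *gch2* (-0.20), *klf9* (-0.74), *rhcga* (-0.023) and *slc12a3* (0.38).

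The replicate numbers did not pair the pools, since same-numbered pools correlated at -0.04, -0.06 and -0.05 in their deviations from the group means over genes. With the replicate number as a block 1608 genes rose and 1574 fell, 3182 in all, and the interaction called 464. Depth limits the low genes, and the calls of *psmb8a* and *slc2a5* include pools at or under the floor of 3 counts. Age and batch coincide, so no setting separates them.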
